A study of Mus musculus with 42 samples.

Results

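The comparison followed conventional CD4+ T cells (Tconv) in culture from 2 to 8 h after their T cell receptor was engaged. Its members were the 4 arrays titled as Tconv in culture at 2 h and at 8 h, 2 per time, of 42 arrays in the series. All 4 came from splenocytes of NOD mice, which become diabetic through autoimmunity, with the genotype given as Foxp3-IREs-GFP+/+, in which cells that express Foxp3 also make green fluorescent protein (GFP). The splenocytes were kept with 1.25 µg/ml of KT3, which binds the CD3 chains of the receptor complex and thereby triggers it, for 2 or 8 h, and Tconv were then sorted as B220- CD8a- CD11b- CD11c- CD4+ GFP- on a MoFlo. The arrays numbered 1 are labelled as female and 9 weeks of age and those numbered 2 as male and 14 weeks. The number therefore stands for sex and age as well. Each 8 h array was compared with the 2 h array of its number. The labels do not say whether both times of a number came from 1 mouse or from separate cultures. The p-values and SE of the step rest on the shared spread of 19 culture arrays. These include regulatory T cells (Treg) and other times beside the 4 arrays compared. The p-values cover the spread among those arrays alone, which may be technical.

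The same step was measured in 2 other settings. Treg of the same culture labels (2 arrays each at 2 and 8 h, with the same sexes and ages) are given the same GFP- gate, but Foxp3, the factor that defines Treg, stood between 11.52 and 12.34 (log2 intensity) on the 10 Treg culture arrays and between 7.03 and 8.20 on the 10 Tconv culture arrays. Tconv in vivo came from female NOD Foxp3-IRES-GFP mice of 8 weeks that had received KT3 intravenously 2 or 8 h before, with 2 arrays per time. The splenocyte cultures held antigen-presenting cells and other lymphocytes beside the T cells until the sort.

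Engagement of the T cell receptor sets off kinase cascades and calcium signals that switch on a first wave of genes within the hour, the immediate-early transcription factors among them. Many of their transcripts are short-lived, and inhibitors that the same signals induce help to end the wave. A later wave serves growth: the resting T cell, which is small and makes little protein, builds ribosomes, loads tRNAs, makes nucleotides and takes up amino acids before it divides. Myc, a transcription factor that binds E-box sequences, drives much of that growth programme. Interleukins and their receptors then shape which helper fate the cell takes.

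The cells on all 4 arrays carried the marks of CD4 T cells. Cd4 itself lay between 10.55 and 11.06 in log2 intensity, and the mean of 7 CD4 T cell markers was 10.96 and 10.84 at 2 h (numbers 1 and 2) and 10.13 and 10.72 at 8 h. The array medians lay between 6.58 and 6.70. The means of marker lists for B cells (5.65 to 6.09), macrophages (5.84 to 6.14), neutrophils (5.54 to 5.89), dendritic cells (5.68 to 5.90), NK cells (4.47 to 4.74), platelets (5.88 to 6.07) and plasma cells (5.65 to 6.02) were below the array median on all 4. CD8 T cell markers (6.57 to 6.93) and erythroid markers (6.29 to 6.68) lay near it. Xist, the RNA that coats the inactive X chromosome, stood at 8.85 and 7.20 on the arrays numbered 1 and at 5.30 and 4.66 on those numbered 2, and the Y-linked Eif2s3y at 3.53 and 3.35 against 8.05 and 8.15, as the labelled sexes require. In such bulk samples, fewer cells of a type and less RNA per cell cannot be told apart.

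One of the arrays stood somewhat apart. The 8 h array numbered 1 had an interquartile range of 2.10 log2 units against 2.46, 2.47 and 2.53 on the other 3, and a mean correlation with the other arrays of the series of 0.794 against 0.879 to 0.893. Its pattern of deviation went with level. The dimmest 3107 genes (by the mean of the arrays not compared) had a median difference from 2 to 8 h of 0.25 in number 1 and -0.02 in number 2, while the brightest 3106 genes had -0.29 and 0.02. Over the bright genes, number 1 was thus lower at 8 h by a median that number 2 did not share. Counts of list members without this array are given beside most lists. Such a fit leaves 1 array at 8 h, and why a call was lost there was not tested.

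Of 12425 genes tested, 1841 (14.8%) were called at an adjusted p under 0.05 (limma, Benjamini-Hochberg): 828 (6.66%) were higher at 8 h and 1013 (8.15%) lower. Every list count below is to be read beside these shares. They were larger among bright genes, where 356 of the brightest 3106 were called higher and 497 lower. At least a 2-fold change was seen for 334 of the genes called higher and 554 of those called lower, and at least a 4-fold change for 21 and 64. Both numbers gave the same direction for all 1841, against 62.1% of all genes tested. A gene whose numbers disagree can hardly be called, so this agreement, like the separation given next, follows largely from the call itself. The arrays of the 2 times did not overlap for 828 of the called rises and 1011 of the called falls, where 25.8% of all genes lay wholly higher and 23.3% wholly lower. Number 1 gave the larger difference for 546 of the 828 rises and 862 of the 1013 falls. Its median was 0.99 among the rises against 0.87 in number 2, and -1.39 among the falls against -0.73. The sizes of the rises were thus closer between the numbers than those of the falls. Across all genes the differences of the 2 numbers correlated at 0.56 (Pearson), a description in which genes are not independent. Without the 8 h array numbered 1, 555 genes were called higher and 319 lower, without the 2 h array numbered 1 342 and 376, and without the 8 h array numbered 2 649 and 1706, the lone array left being taken to vary like the other groups. In all 4 fits that left out 1 array, 302 of the rises and 276 of the falls remained. With the 0 h Tconv array numbered 1 in the fit, 337 genes were called higher and 359 lower.

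**Figure D1:**
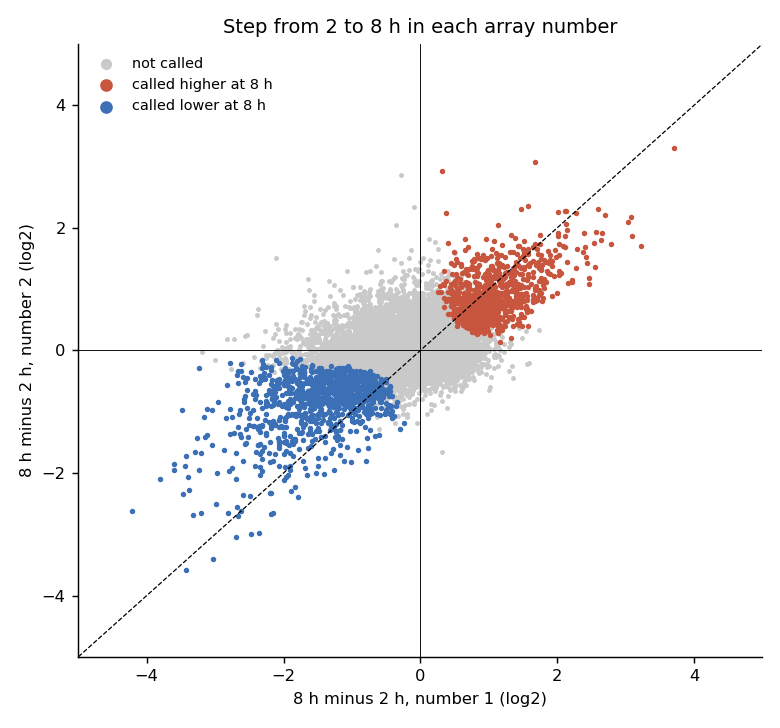
Difference from 2 to 8 h (log2) in the arrays numbered 1 (horizontal axis) and numbered 2 (vertical axis) for the 12425 genes tested, coloured where called higher or lower; the dashed line marks equal differences. The called genes lie in the 2 quadrants of like sign, as the call nearly requires. The called falls lie mostly above the dashed line, with a larger fall in number 1 for 862 of 1013.

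The largest rise was that of Tnfrsf9, which encodes the costimulatory receptor 4-1BB. It stood at 8.36 and 8.37 (log2 intensity, numbers 1 and 2) at 2 h and at 12.07 and 11.67 at 8 h. The groups lay far apart, and the change was 3.50 ± 0.21 (SE, n = 2 arrays per time; adjusted p = 8.09e-07), or 11.3-fold. Lag3, an inhibitory receptor that binds MHC class II, moved from 6.67 and 7.22 to 9.37 and 9.43 (2.45 ± 0.29, adjusted p = 7.77e-05). Metabolic enzymes and transporters were among the other 10. Shmt2, the mitochondrial enzyme that feeds carbon from serine into folate metabolism, rose by 2.63 ± 0.23, spermidine synthase Srm by 2.56 ± 0.21 and the folate carrier Slc19a1 by 2.48 ± 0.25. Dpagt1, which starts the building of N-linked glycans, rose by 2.46, the chaperone Hsph1 by 2.45, the interferon-stimulated Ifit3 by 2.37, the RNA polymerase I subunit Polr1b by 2.29, the sterol-regulated membrane protein Tmem97 by 2.26, the pseudouridine synthase Pus7 by 2.26 and Cad, which begins pyrimidine synthesis, by 2.25.

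The largest fall was that of Egr2. This zinc finger factor, induced by receptor signals, went from 11.70 and 11.71 at 2 h to 8.28 and 8.12 at 8 h, a change of -3.51 ± 0.23 (adjusted p = 8.09e-07; 11.4-fold). Il7r, the receptor chain for the survival cytokine IL-7, went from 11.80 and 11.72 to 7.58 and 9.10 (-3.42 ± 0.33, adjusted p = 1.77e-05). Both 8 h arrays were below both 2 h arrays, but number 1 fell by 4.22 and number 2 by 2.62. The nuclear receptor Nr4a2 changed by -3.21 ± 0.21, and Kif23, a kinesin of cytokinesis, by -3.01 ± 0.25. Smaller were the changes of the ubiquitin ligase Trim13 (-2.95), Egr1 (-2.93), the chromatin remodeller Chd2 (-2.91), the small GTPase Rrad (-2.87), Mctp2 (-2.83), the lysophospholipid receptor gene P2ry10 (-2.78), the AP-1 family member Fosl2 (-2.74) and Vps37b, a part of the endosomal sorting machinery (-2.74). All 24 of these genes were called in each of the 4 fits without 1 array.

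**Figure D2:**
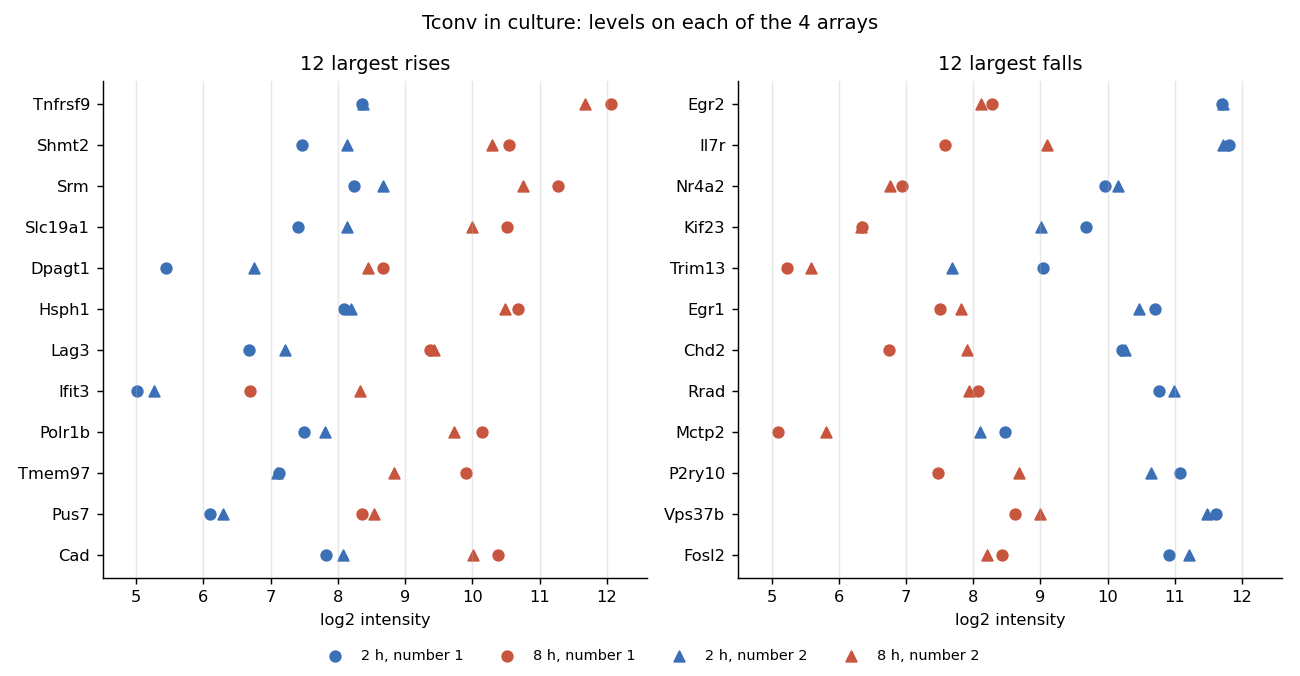
Log2 intensity of the genes with the 12 largest called rises (left) and the 12 largest called falls (right) on each of the 4 arrays, with circles for number 1, triangles for number 2, blue for 2 h and red for 8 h. In every row both 8 h arrays lie on one side of both 2 h arrays, as the choice of genes requires. The arrays of a time lie furthest apart for Ifit3 at 8 h (6.69 and 8.33).

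Immediate-early transcription factors, the first genes switched on by the receptor, were lower at 8 h almost throughout. Of 20 tested members 16 were called lower and 0 higher, where 8.15% of all genes were called lower, and their median was -1.76 (-2.04 in number 1, -1.69 in number 2) against 0.03 over all genes. Without the 8 h array numbered 1, 13 members were called lower. Beside Egr2, Egr1, Nr4a2 and Fosl2, given above, Nr4a1, a nuclear receptor that reports receptor signal strength, stood at 13.21 and 13.61 at 2 h and at 12.47 and 12.31 at 8 h, a change of -1.02 ± 0.21 (adjusted p = 0.00451). That call was lost without the 2 h array numbered 2 (adjusted p = 0.0613) and with the 0 h Tconv array numbered 1 in the fit (0.0562). Nr4a1 thus remained bright at 8 h while Egr2 lost most of its level.

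The promoter of Egr2 is shown because serum response factor, which takes part in immediate-early induction, is known to bind CArG boxes. Of the windows listed for Egr2, the first with most matches was picked. Its window (RefSeq, GRCm38.p6, chr10:67537619-67537918, plus strand, from 250 bases before to 50 after a start of the gene, 1 of 5 listed) holds 1 match of a looser CArG box (CC, any base, TAT, any 2 bases, GG), in capitals, whose first base lies 72 bases before the start:
Egr2: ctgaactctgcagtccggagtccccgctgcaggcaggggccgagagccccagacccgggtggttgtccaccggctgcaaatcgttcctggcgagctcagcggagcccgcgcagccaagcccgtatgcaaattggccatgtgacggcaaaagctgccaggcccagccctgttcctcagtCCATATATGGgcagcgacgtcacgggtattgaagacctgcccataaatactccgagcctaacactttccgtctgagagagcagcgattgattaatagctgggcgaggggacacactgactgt
Searched on both strands, this pattern was in 4 of 19 windows of the immediate-early members called lower (21.1%, for the 13 of 16 genes with a window) and in 1.49% of the 12457 windows of all genes tested. Several windows of 1 gene overlap, so that 1 match can count more than once. A match is a description of the letters and not of a bound site.

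Inhibitors and signalling proteins that accompany the first wave were called lower in part. Among 13 MAP kinase phosphatases and RNA decay factors 6 were called lower and 0 higher (median -0.85; 5 without the 8 h array numbered 1). Btg2, an antiproliferative factor that promotes mRNA decay, went from 11.35 and 11.63 to 8.93 and 9.74 (-2.16 ± 0.22), and Dusp10, a phosphatase of p38 and JNK kinases, from 10.77 and 10.49 to 8.79 and 9.14 (-1.67 ± 0.19). Dusp6, a phosphatase of ERK, changed by -1.54 ± 0.23, and Zfp36, which destabilizes cytokine mRNAs, by -1.45 ± 0.27. The 2 h arrays were above the 8 h arrays for each of these 4 genes. Among 14 NF-kB subunits and inhibitors 10 were called lower and 0 higher (median -0.78; 6 without the 8 h array numbered 1). Nfkbid and Nfkbiz, inhibitor-like nuclear partners of NF-kB, changed by -1.57 ± 0.26 and -1.56 ± 0.28, the ubiquitin ligase Birc3 by -1.34 ± 0.22 and the subunit Rel by -1.31 ± 0.28. Rel was no longer called without the 2 h array numbered 1 (adjusted p = 0.0886) or the 8 h array numbered 1 (0.0758).

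Receptors for the cytokines that direct helper differentiation were mostly lower at 8 h. Of 16 tested, 10 were called lower and 1 higher, with a median of -1.24 (-1.52 in number 1, -0.88 in number 2). Ifngr2 and Ifngr1, the chains of the interferon gamma receptor, went from 11.69 and 11.62 to 8.94 and 9.70 and from 11.19 and 11.35 to 8.85 and 9.44 (-2.34 ± 0.24 and -2.12 ± 0.20). Il4ra, the IL-4 receptor alpha chain, was at 11.67 and 11.52 at 2 h and at 9.60 and 9.63 at 8 h (-1.98 ± 0.15, adjusted p = 3.06e-06). For these 3 genes both 8 h arrays lay below both 2 h arrays. Il12rb2, the inducible chain of the IL-12 receptor, stood at 7.55 and 7.36 and then at 5.57 and 5.46, below the array median; its change of -1.94 ± 0.47 was no longer called without the 2 h or the 8 h array numbered 1 (adjusted p = 0.119 and 0.058). Without the 8 h array numbered 1, 6 of the receptors were called lower and 0 higher.

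Members of the IL-2 system were called in both directions. Il2ra, the chain that gives the IL-2 receptor its high affinity, rose from 7.63 and 7.71 to 9.56 and 9.07 (1.65 ± 0.25, adjusted p = 0.000514; 3.13-fold), and Bcl2l1, which encodes the survival protein Bcl-xL, from 7.33 and 7.31 to 9.48 and 8.76 (1.80 ± 0.22). Stat5b, a transducer of the IL-2 signal, went from 11.11 and 11.20 to 9.65 and 9.79 (-1.43 ± 0.18), and its feedback inhibitor Socs3 by -1.20 ± 0.27, no longer called without the 2 h array numbered 1 (adjusted p = 0.0939) or the 8 h array numbered 1 (0.122). Of the 13 members 3 were called higher and 4 lower, and without the 8 h array numbered 1 2 were higher and 1 lower. Bcl2, another survival gene, went the other way from Bcl2l1, from 8.69 on both arrays to 6.95 and 7.34 (-1.54 ± 0.25).

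Cytokine transcripts were called about as often as all genes, of which 8.15% were called lower and 14.8% in either direction. Il2 itself lay at 6.56 and 6.44 at 2 h and at 6.01 and 6.12 at 8 h, below the median of its array each time, and was not called (-0.43 ± 0.17, adjusted p = 0.0975). Of 15 cytokines tested 2 were called lower and 0 higher, and 1 was called lower without the 8 h array numbered 1. Tnf, a main product of activated T cells, was at 11.43 and 11.82 and then at 10.68 and 10.23 (-1.17 ± 0.27), and Il21 at 4.79 and 5.38 and then at 4.27 and 4.36 (-0.77 ± 0.20), the latter at the dim end of the scale. Neither was called in all fits: Tnf had an adjusted p of 0.0933 without the 2 h array numbered 2 and 0.0529 without the 8 h array numbered 2, and Il21 0.21 without the 2 h array numbered 2 and 0.123 without the 8 h array numbered 1. Of 9 chemokines only Ccl5 was called (-0.90 ± 0.23), and it was lost without the 2 h array numbered 1 (0.131) or the 8 h array numbered 1 (0.121).

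Of 19 costimulatory receptors and ligands tested, 5 were called lower and 2 higher, Tnfrsf9 among the latter, and 12 were not called (median -0.19; -0.27 in number 1 and -0.04 in number 2). Without the 8 h array numbered 1, 4 were lower and 1 higher. Cd40lg, the ligand by which helper T cells activate B cells, went from 10.24 and 9.27 to 7.04 and 7.59 (-2.43 ± 0.32, adjusted p = 0.000166), and Icos, a receptor of the CD28 family, from 10.95 and 11.09 to 8.95 and 8.97 (-2.05 ± 0.22, adjusted p = 3.69e-05). Both fell in both numbers, Icos by almost the same amount. Cd69, an early activation antigen that retains cells in lymphoid tissue, stood at 12.23 and 11.78 and then at 10.01 and 10.11 (-1.94 ± 0.42), a call lost without the 2 h array numbered 1 (adjusted p = 0.116) and with the 0 h Tconv array numbered 1 in the fit (0.102).

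Of 8 inhibitory receptors tested 2 were called higher, Lag3 among them, and 4 lower, and without the 8 h array numbered 1 1 was higher and 2 were lower. Ctla4, which competes with CD28 for its ligands, went from 9.38 and 9.31 to 7.39 and 7.62 (-1.84 ± 0.23), and Tigit from 9.10 and 9.22 to 7.59 and 7.23 (-1.76 ± 0.22). Cd274, which encodes the ligand PD-L1, changed by -1.14 ± 0.26, no longer called without the 2 h array numbered 1 (adjusted p = 0.122) or the 8 h array numbered 1 (0.0898). Ctla4 and Tigit were called in all 4 fits without 1 array.

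Transcripts of the receptor complex and of its proximal signalling proteins were called lower for 7 and higher for 1 of 22 members (median -0.54; -0.82 in number 1 and -0.13 in number 2). Of all genes 8.15% were called lower and 6.66% higher. Txk, a kinase of the Tec family, went from 10.82 and 10.71 to 8.20 and 9.30 (-2.01 ± 0.25), and Grap2, an adaptor that joins LAT to SLP-76, from 11.05 and 10.88 to 8.79 and 9.50 (-1.82 ± 0.24). Ptpn22, a phosphatase that restrains receptor signals, changed by -1.12 ± 0.23, lost without the 2 h array numbered 1 (adjusted p = 0.0641) or with the 0 h Tconv array numbered 1 in the fit (0.209). Dgkz, a diacylglycerol kinase that also restrains them, rose from 8.93 and 9.03 to 10.27 and 10.21 (1.26 ± 0.20). For these 3 falls the 8 h array numbered 1 was the lowest, the array on which bright genes were lower as a whole; the part of that shift in these falls was not tested, and without it 4 members were called lower and 1 higher.

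Among 23 regulators of helper lineages 2 were called higher and 8 lower. Most of these calls depended on single arrays: without the 8 h array numbered 1 they were 1 and 3, and with the 0 h Tconv array numbered 1 in the fit 1 and 1. Eomes, a T-box factor of effector and memory cells, rose from 6.38 and 6.53 to 8.39 and 8.79 (2.13 ± 0.26, adjusted p = 0.000116; 4.39-fold). Irf8 rose by 1.03 ± 0.28, no longer called without the 2 h array numbered 1 (adjusted p = 0.224) or the 8 h array numbered 1 (0.124). Stat4, which transmits the IL-12 signal, went from 10.29 and 10.67 to 8.30 and 9.29 (-1.68 ± 0.27; not called with the 0 h Tconv array numbered 1 in the fit, adjusted p = 0.0661), and Bcl6, the factor of follicular helper cells, from 9.63 and 10.30 to 8.52 and 8.48 (-1.46 ± 0.25). Batf, an AP-1 partner of Irf4, changed by -0.92 ± 0.28 (adjusted p = 0.0368), lost without any 1 array other than the 8 h array numbered 2. Irf4, which is needed for effector differentiation, was at 10.63 and 10.86 at 2 h and at 11 and 10.49 at 8 h and had a difference of 0.00 ± 0.30. Tbx21, the Th1 factor, had a difference of -0.03 ± 0.39, and Foxp3, between 7.03 and 7.46, one of -0.30 ± 0.19 (adjusted p = 0.358).

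The GIMAP GTPases, a lymphocyte family linked to T cell survival and encoded side by side, were called lower for all 8 tested members. Their median was -1.57, with -2.02 in number 1 and -1.13 in number 2. Gimap7 went from 9.00 and 8.80 to 6.42 and 7.26 (-2.05 ± 0.23, adjusted p = 5.6e-05), and Gimap3 from 10.42 and 10.77 to 8.08 and 9.23 (-1.94 ± 0.27). Gimap6 changed by -1.70 ± 0.21, and Gimap5, whose loss depletes T cells in mice and rats, by -1.59 ± 0.31, the last just lost without the 8 h array numbered 1 (adjusted p = 0.0529). Without that array 5 of the 8 were called, and all were below their 2 h arrays in both numbers.

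Regulators of quiescence were called lower for 8 of 22 and higher for 0 (median -0.67; -0.98 in number 1, -0.34 in number 2), where 8.15% of all genes were called lower. Zeb1, a zinc finger repressor, went from 10.25 and 10.28 to 7.91 and 8.25 (-2.18 ± 0.26), and Tob2, an antiproliferative relative of Btg2, from 8.64 and 8.66 to 7.17 and 7.34 (-1.40 ± 0.17). Tob1, its close relative, changed by -1.26 ± 0.25, just lost without the 8 h array numbered 1 (adjusted p = 0.0614) and with the 0 h Tconv array numbered 1 in the fit (0.0831). Klf3 stood at 9.31 and 9.68 and then at 7.71 and 9.04 (-1.12 ± 0.33); its call was held in 1 of the 4 fits without 1 array. Without the 8 h array numbered 1 the changes were -2.06 for Zeb1, -1.33 for Tob2, -0.88 for Tob1 and -0.58 for Klf3. The part of that array in the calls lost there was not tested.

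Of 16 genes of lymphoid homing and egress 6 were called lower and 1 higher (median -0.39), and without the 8 h array numbered 1 4 and 0. Itga6, an integrin chain for laminin, went from 10.46 and 10.48 to 7.83 and 9.10 (-2.0 ± 0.29), and Selplg, the ligand of P-selectin, from 11.64 and 11.89 to 9.60 and 10.63 (-1.64 ± 0.26). S1pr1, the receptor by which T cells leave lymphoid organs, stood at 11.64 and 11.54 and then at 9.47 and 10.83 (-1.44 ± 0.31), and the integrin Itga4 changed by -1.29 ± 0.34. The fall was at least 2-fold in both numbers for Itga6 and Selplg. For S1pr1 and Itga4 it was larger in number 1, and both calls were lost without the 2 h array numbered 1 (adjusted p = 0.0962 and 0.233) and without the 8 h array numbered 1 (0.0928 and 0.293).

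**Figure D3:**
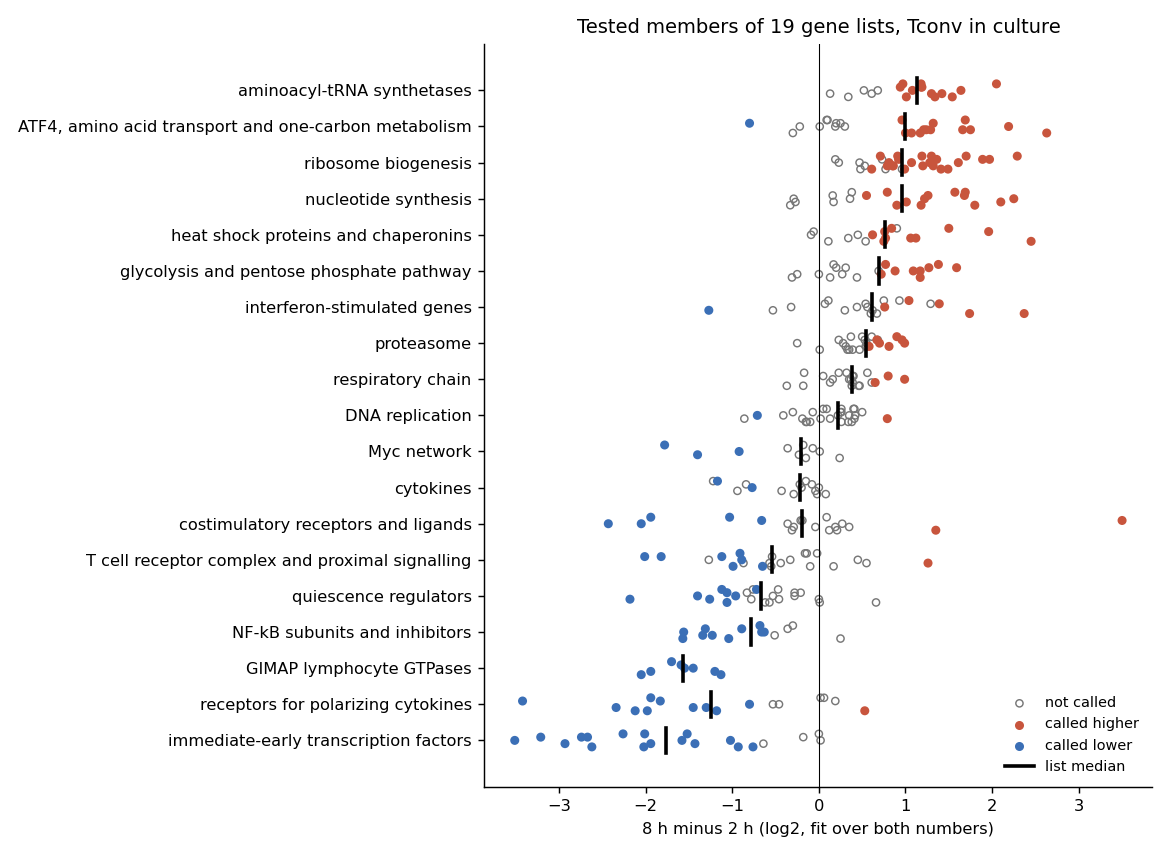
Difference from 2 to 8 h (log2, fit over both numbers) of each tested member of 19 gene lists, filled where called and open where not, with the list median as a black bar. Members of the growth lists at the top lie to the right, with medians up to 1.13, and those of the receptor, GIMAP and immediate-early lists at the bottom to the left, with medians down to -1.76.

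Several lists of growth genes had many members called higher. Ribosome biogenesis, the making of ribosomal RNA and its assembly with proteins in the nucleolus, had 23 of 31 members called higher and 0 lower, where 6.66% of all genes were called higher. Its median was 0.96 (1.03 in number 1, 1.15 in number 2), and 15 members were called without the 8 h array numbered 1. Polr1b went from 7.49 and 7.81 to 10.15 and 9.73 (adjusted p = 1.81e-05), Nop16 from 8.27 and 8.68 to 10.68 and 10.20 (1.97 ± 0.24), and Wdr12, a factor of the large subunit, from 7.71 and 7.53 to 9.38 and 9.26 (1.70 ± 0.23). Dkc1, the pseudouridine synthase of box H/ACA particles, rose by 1.89 ± 0.32. With the 0 h Tconv array numbered 1 in the fit, 13 members were called and Dkc1 was just lost (adjusted p = 0.0553).

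Aminoacyl-tRNA synthetases, which load tRNAs with their amino acids, were called higher for 13 of 18 members and lower for 0, with a median of 1.13 (1.11 and 0.98 in numbers 1 and 2). The 13 were also called in each of the 4 fits without 1 array. Mars1, for methionine, went from 8.12 and 8.41 to 10.52 and 10.10 (2.05 ± 0.19, adjusted p = 1.31e-05), Yars, for tyrosine, from 7.88 and 7.86 to 9.70 and 9.33 (1.64 ± 0.17), Vars, for valine, from 8.00 and 8.07 to 9.74 and 9.42 (1.54 ± 0.19) and Wars, for tryptophan, from 8.42 and 8.61 to 9.94 on both arrays (1.42 ± 0.22). Each was more than 1 log2 unit above its 2 h arrays in both numbers. Of 17 translation initiation factors 6 were called higher and 0 lower (median 0.35), and 3 without the 8 h array numbered 1. Eif2b3, a subunit of the exchange factor of eIF2, rose by 1.48 ± 0.21 and Eif5a, which helps ribosomes past difficult peptide bonds, by 1.36 ± 0.17, from 11.01 and 11.15 to 12.58 and 12.30. Eif3b rose by 1.08 ± 0.19, a call lost with the 0 h Tconv array numbered 1 in the fit (adjusted p = 0.104).

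Genes of amino acid supply, serine and one-carbon metabolism, many of them targets of the stress factor ATF4, were called higher for 13 and lower for 1 of 23 (median 1.00; 1.08 and 0.84 in numbers 1 and 2), and for 12 and 0 without the 8 h array numbered 1. Shmt2 stood at 7.46 and 8.13 at 2 h and at 10.54 and 10.30 at 8 h (6.19-fold). The cytosolic Mthfd1 went from 8.30 and 7.73 to 10.41 and 10.01 (2.19 ± 0.22), Slc7a5, a transporter of large neutral amino acids, from 9.11 and 9.06 to 11.09 and 10.60 (1.75 ± 0.22), and Shmt1, the cytosolic counterpart of Shmt2, from 7.16 and 7.39 to 9.38 and 8.54 (1.69 ± 0.27). The transporter and both compartments of the folate cycle thus rose together. Nucleotide synthesis had 13 of 20 members higher and 0 lower (median 0.96; 0.95 and 1.02), and 12 without the 8 h array numbered 1. Cad went from 7.82 and 8.08 to 10.38 and 10.01 (adjusted p = 1.31e-05), and Pfas, of purine synthesis, from 7.56 and 7.45 to 9.69 and 9.51 (2.10 ± 0.16). Gart, likewise of purine synthesis, rose by 1.80 ± 0.20, and Umps, which completes uridine monophosphate, by 1.69 ± 0.22. For these 4 genes the arrays of a time lay close together and far from those of the other time.

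Glycolysis and the pentose phosphate pathway had 9 of 19 members higher and 0 lower (median 0.69; 0.84 and 0.39 in numbers 1 and 2), and 6 higher without the 8 h array numbered 1. Tpi1, triose phosphate isomerase, rose by 1.59 ± 0.32 (lost without the 2 h array numbered 1, adjusted p = 0.0572), Pgk1 by 1.38 ± 0.24 from 9.93 on both arrays to 11.32 and 11.31, Pgd, of the pentose phosphate pathway, by 1.27 ± 0.18 and Aldoa by 1.17 ± 0.21. In the TCA cycle 2 of 16 members were called higher (median 0.35; 0.20 and 0.34 in numbers 1 and 2) and in the respiratory chain 3 of 21 (median 0.38; 0.29 and 0.46), with 0 lower in either and 2 and 1 higher without the 8 h array numbered 1. In number 2 the medians of the 3 lists thus lay close together. Over all genes 6.66% were called higher, and 356 of the brightest 3106. Mitochondrial ribosome and import genes had 10 of 26 higher and 0 lower (median 0.55; 8 higher without that array), led by Tomm40 (1.24 ± 0.20) and Timm50 (1.09 ± 0.17), subunits of the outer and inner membrane translocases. Cholesterol and fatty acid synthesis had 11 of 24 higher and 0 lower (median 0.55; 0.81 and 0.40), and 5 higher without the 8 h array numbered 1. There Sqle, squalene epoxidase, rose from 7.32 and 7.94 to 9.78 and 9.02 (1.77 ± 0.25), Acaca, which commits carbon to fatty acids, from 7.56 and 7.55 to 9.00 and 9.24 (1.57 ± 0.19), Idi1 by 1.42 ± 0.30 and Lss by 1.28 ± 0.20.

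Heat shock proteins and chaperonins had 10 of 17 members higher and 0 lower, with a median of 0.76 (0.63 and 0.85 in numbers 1 and 2). Hsph1, a nucleotide exchange factor of Hsp70, went from 8.09 and 8.19 to 10.68 and 10.49 (2.45 ± 0.29; 5.45-fold), and the mitochondrial chaperonin pair Hspd1 and Hspe1 from 9.28 and 8.97 to 10.85 and 11.31 and from 10.77 and 10.30 to 12.18 and 11.88 (1.96 ± 0.31 and 1.5 ± 0.26). Cct3, a subunit of the cytosolic chaperonin, rose by 1.12 ± 0.19 (not called with the 0 h Tconv array numbered 1 in the fit, adjusted p = 0.214). Without the 8 h array numbered 1, 5 members were called, and with the 0 h Tconv array numbered 1 in the fit 3.

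Myc, whose product drives such growth genes, was itself high and not called: 10.64 and 10.97 at 2 h and 10.62 and 10.27 at 8 h (-0.36 ± 0.22, adjusted p = 0.339). Of its network 3 of 10 members were called lower and 0 higher (2 lower without the 8 h array numbered 1), all of them Mxd family repressors that compete with Myc for Max. Mxd1 went from 10.16 and 9.74 to 7.84 and 8.50 (-1.78 ± 0.26), Mxd4 from 9.56 and 9.58 to 7.79 and 8.54 (-1.40 ± 0.22) and Mxi1 from 8.08 and 8.18 to 6.93 and 7.48 (-0.92 ± 0.20). Mxi1 was no longer called without the 8 h array numbered 1 (adjusted p = 0.112). Myc itself was thus not called while these antagonists were.

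The E-box letters CACGTG, which read the same on both strands, were in 148 of 862 promoter windows of the genes called higher (17.2%), in 66 of 346 of those at least 2-fold higher (19.1%) and in 92 of 1075 of the genes called lower (8.56%), where the share among 12457 windows of all genes tested was 9.88%. The windows (RefSeq, GRCm38.p6) reach from 250 bases before to 50 after a gene's start. The share is a description, without a test, and windows of 1 gene can overlap. Of the named genes with a window, 8 of 56 called higher and 4 of 57 called lower held the letters. Shown are 3 of these rises, picked because they have a match, each with its window of most matches. They are Cdk4, the kinase that starts the G1 phase, with 4 matches, and Pus7 and Hsph1, among the 12 largest rises, with 1 each. The E-box is in capitals, and in Hsph1 also the pattern GAANNTTC, the core of heat shock elements. The window of Cdk4 is chr10:127063285-127063584 (plus strand), with matches that begin 172, 118, 98 and 11 bases before the start, that of Pus7 is chr5:23783662-23783961 (minus strand, 1 of 2), with the match from base 29 of the transcript on, and that of Hsph1 is chr5:149636287-149636586 (minus strand, 1 of 2), with the E-box from base 3 and the heat shock pattern from base 42 on:
Cdk4: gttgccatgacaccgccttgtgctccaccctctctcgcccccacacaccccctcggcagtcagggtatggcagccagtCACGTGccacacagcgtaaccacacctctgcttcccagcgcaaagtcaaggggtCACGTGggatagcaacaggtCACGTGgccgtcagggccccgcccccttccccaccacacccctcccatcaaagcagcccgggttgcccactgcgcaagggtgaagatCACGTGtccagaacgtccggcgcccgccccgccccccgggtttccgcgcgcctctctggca
Pus7: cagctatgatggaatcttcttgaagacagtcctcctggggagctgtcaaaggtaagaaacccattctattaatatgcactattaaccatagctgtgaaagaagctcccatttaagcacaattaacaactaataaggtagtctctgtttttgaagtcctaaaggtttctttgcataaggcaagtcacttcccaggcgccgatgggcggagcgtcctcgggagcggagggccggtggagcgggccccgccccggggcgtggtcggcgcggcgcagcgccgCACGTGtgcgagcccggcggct
Hsph1: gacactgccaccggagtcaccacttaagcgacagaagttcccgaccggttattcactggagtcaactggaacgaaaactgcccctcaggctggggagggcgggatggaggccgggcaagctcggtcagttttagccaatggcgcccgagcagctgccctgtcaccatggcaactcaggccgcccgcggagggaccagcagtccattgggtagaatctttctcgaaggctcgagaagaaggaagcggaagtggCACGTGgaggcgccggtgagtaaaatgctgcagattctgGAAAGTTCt
The heat shock pattern, searched on both strands, was in 4 of 12 windows of the heat shock members called higher (33.3%) against 5.62% of all windows. The pattern TGATGNAA of amino acid response elements, to which ATF4 binds, was in 4 of 8 windows of the tRNA synthetases called higher (8 of 13 genes have a window) against 2.14% of all windows. In the called members of the list of ATF4 targets, amino acid transport and one-carbon metabolism it was in 1 of 14 windows (7.14%).

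Of the cell cycle genes, Cdk4 went from 9.57 and 9.61 to 11.59 and 11.34 (1.88 ± 0.23, adjusted p = 0.000108; 3.68-fold), and cyclin D2 (Ccnd2) rose by 0.96 ± 0.23, no longer called without the 2 h array numbered 1 (adjusted p = 0.195) and just lost without the 8 h array numbered 1 (0.0513). The retinoblastoma relative Rbl2, which holds cells out of the cycle, and Ccng2, a cyclin of arrest, changed by -1.37 ± 0.30 and -1.20 ± 0.28, both lost without the 2 h array numbered 1 (0.115 and 0.114) or the 8 h array numbered 1 (0.111 and 0.157). Of 19 G1 genes 3 were higher and 3 lower, and 2 and 0 without the 8 h array numbered 1. Of 27 DNA replication genes 1 was called higher, the polymerase subunit Pole (0.79 ± 0.22), and 1 lower, the licensing factor Cdt1 (-0.71 ± 0.20), and neither was called without the 8 h array numbered 1 (0.214 and 0.189) or the 2 h array numbered 2 (0.229 and 0.239). Of 21 mitosis genes 0 were higher by limma and 1 was lower, Kif23, which stood at 9.67 and 9.01 at 2 h and at 6.34 and 6.33 at 8 h (8.03-fold). Kif23 thus moved apart from the rest of its list, whose median was 0.03.

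Of 20 interferon-stimulated genes tested 5 were called higher and 1 lower (6 and 1 without the 8 h array numbered 1), with a median of 0.61 (0.37 in number 1, 0.94 in number 2). Ifit3, an antiviral tetratricopeptide protein, went from 5.01 and 5.26 to 6.69 and 8.33 (2.37 ± 0.41), Bst2, or tetherin, from 8.15 and 7.90 to 10.01 and 9.52 (1.74 ± 0.21) and the deconjugating protease Usp18 from 6.85 and 7.39 to 7.82 and 9.21 (1.39 ± 0.25). Irf1, a factor induced by interferon gamma, went the other way, from 11.07 and 10.93 to 9.66 and 9.80 (-1.27 ± 0.18). The 8 h array numbered 1 was the lower of the pair for Ifit3 and Usp18 and the higher for Bst2.

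Later and earlier times show where the step lies in the whole course. Egr2 was at 6.84 and 7.57 (numbers 1 and 2) at 0 h, rose to its height at 2 h and stood between 8.12 and 8.66 at 8, 24 and 72 h. Tnfrsf9 was at 7.59 and 7.58 at 0 h and, after 8 h, at 10.06 and 10.30 at 24 h and 9.95 and 9.89 at 72 h. Both thus had their extreme at 1 end of the step. Shmt2, at 6.96 and 8.33 at 0 h, was at 9.83 and 9.58 at 24 h and 8.65 and 8.52 at 72 h. Cdk4 was at 9.56 and 10.53 at 0 h, so that number 2 lay above its 2 h level of 9.61 there. At 24 and 72 h Cdk4 remained between 10.95 and 11.13. Gimap7, low at 8 h, was at 9.24 and 9.35 at 24 h and 10.08 on both arrays at 72 h, above its level at 2 h, while Il7r stayed between 7.96 and 8.94. Ifit3 reached 7.48 and 9.27 at 24 h. The 0 h array numbered 1 has the narrowest range of the series (1.64 log2 units), and its values are a description only.

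**Figure D4:**
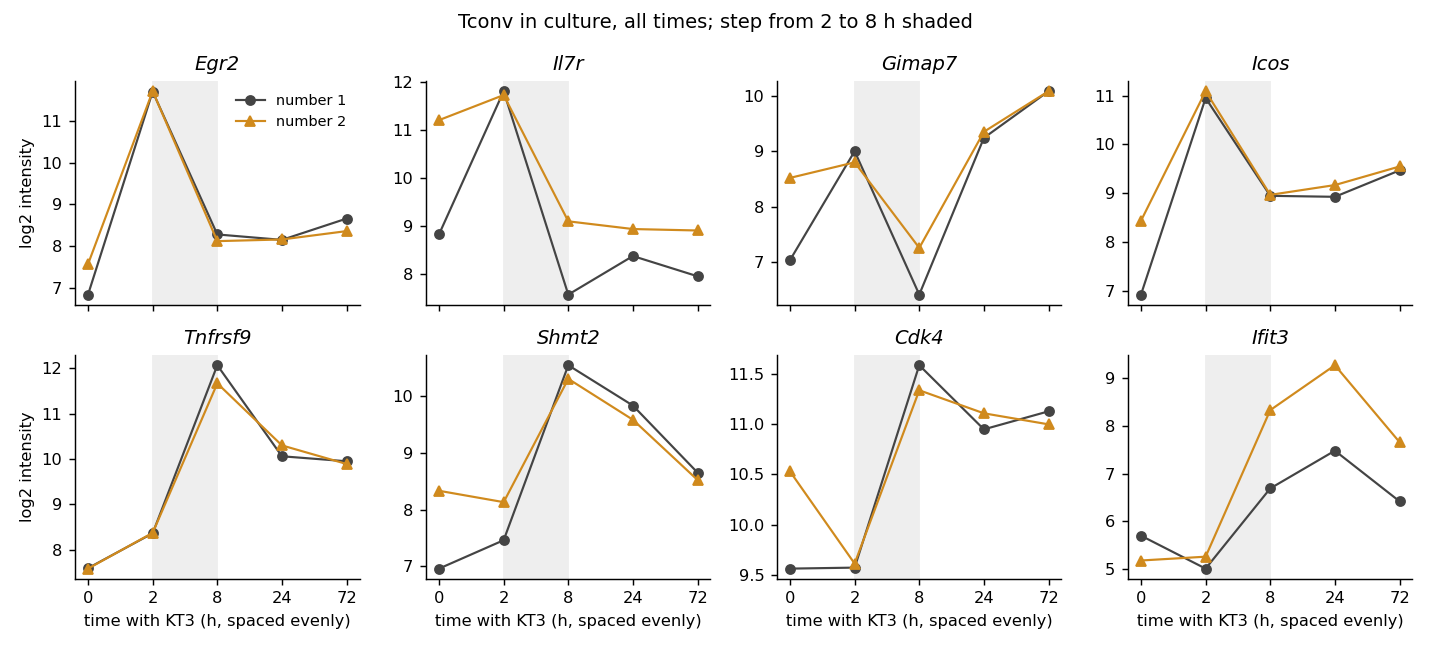
Log2 intensity of 8 genes in Tconv in culture at 0, 2, 8, 24 and 72 h with KT3 for number 1 (circles) and number 2 (triangles), with times spaced evenly and the step from 2 to 8 h shaded. Egr2, Il7r and Icos have their highest level at 2 h, Tnfrsf9, Shmt2 and Cdk4 at 8 h, Gimap7 at 72 h and Ifit3 at 24 h.

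The same step in Treg of the cultures had 518 genes called higher (4.17%) and 238 lower (1.92%). Of the Tconv calls 226 rises (27.3% of the Tconv rises and 43.6% of the Treg rises) and 169 falls (16.7% and 71.0%) were shared, and 8 genes were called in opposite directions. The test of the difference between the steps (the Tconv change minus the Treg change) called 138 genes (1.11%), 17 (0.137%) more positive and 121 (0.974%) more negative in Tconv. This count rested on single arrays: without the Treg 2 h array numbered 2 it was 2 and 9, and without the Tconv 8 h array numbered 2 54 and 637. Differences called in all 8 fits without 1 array are thus given first.

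Tnfrsf9 rose more in Tconv, by 2.76 ± 0.30 (adjusted p = 0.00154). In Treg it was already at 11.54 and 11.48 at 2 h and reached 12.52 and 11.98 at 8 h. Il4ra and Ifngr1 were called lower in Tconv and not in Treg (adjusted p = 0.353 and 0.873 there). Treg had Il4ra at 11.66 and 11.34 and then 11.20 and 11.22, and Ifngr1 at 12.17 and 12.41 and then 12.08 and 12.30, with differences between the steps of -1.69 ± 0.22 and -2.02 ± 0.28. Socs2, an inhibitor of cytokine signals, lay between 4.84 and 5.78 in Tconv and went from 7.08 and 7.18 to 10.09 and 10.02 in Treg (difference -3.20 ± 0.38, adjusted p = 0.00202). Il7r was not called in Treg (-0.43 ± 0.33, adjusted p = 0.584), where it stood at 10.83 and 11.05 and then at 10.36 and 10.66 (difference -2.99 ± 0.47, adjusted p = 0.00876), a call held in 5 of the 8 fits (highest adjusted p = 0.0756, without the Treg 2 h array numbered 2). Interferon-stimulated genes had a median of 2.31 in Treg, with 17 of 20 called higher there and a difference called for 7. GIMAP genes had a Treg median of -0.10, with a difference called for 3 of 8. Of these, Gimap3 and Gimap7 were not called in all 8 fits without 1 array, nor was the difference of Irf1 among the interferon-stimulated genes.

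In vivo, the same step had 2144 genes called higher (17.3%) and 652 lower (5.25%). Calls in vivo rest on a fit of 41 arrays and those in culture on one of 19. Counts of calls in the 2 settings are therefore not of equal power. Of the rises in culture 533 (64.4% of them, 24.9% of those in vivo) and of the falls 259 (25.6% and 39.7%) were called the same way, and 45 genes in opposite ways. The difference between the steps (culture minus in vivo) was called for 1069 genes (8.60%), 248 (2.0%) more positive and 821 (6.61%) more negative in culture. It rested in part on the 8 h culture array numbered 1, without which it was 150 and 213. Arrays of the settings also differed in animals (females of 8 weeks in vivo) and in the route of KT3.

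Counts of growth genes called in vivo ranged widely between lists. Ribosome biogenesis had 8 of 31 members called higher there (median 0.39), with a difference called for 6, and the ATF4 and one-carbon list 9 of 23 (median 0.14), with a difference called for 7. Srm and Polr1b were not called in vivo (0.36 ± 0.23 and 0.11 ± 0.19, adjusted p = 0.271 and 0.681). Srm was at 11.28 and 10.72 in vivo at 2 h and at 11.35 and 11.37 at 8 h, where in culture it started at 8.24 and 8.67, so that the step differed by 2.20 ± 0.32 (adjusted p = 0.000204). Polr1b was at 10.32 and 9.83 in vivo at 2 h (difference 2.18 ± 0.27). At 8 h the settings had similar levels of both genes, with Srm at 11.28 and 10.76 and Polr1b at 10.15 and 9.73 in culture and Polr1b at 10.26 and 10.11 in vivo. Members were called higher in vivo for tRNA synthetases (16 of 18, median 0.79; difference called for 3), nucleotide synthesis (12 of 20, 0.70; 7) and heat shock proteins (15 of 17, 0.83; 0). Of the DNA replication genes, 22 of 27 were called higher in vivo, with a median of 1.22 against 0.22 in culture, and the difference was called for 17. The respiratory chain (19 of 21 higher, median 0.82) and the proteasome (23 of 24, 0.91) were called higher in vivo for most members, with a difference called for 3 and 0.

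The GIMAP genes did not share a fall in vivo, with 0 of 8 called lower and 1 higher there (median -0.02) and a difference called for all 8. Gimap7 was at 8.49 and 7.99 in vivo at 2 h and at 9.50 and 9.37 at 8 h (difference -3.25 ± 0.28, adjusted p = 2.46e-07). Icos, Ctla4 and Tigit also differed (-2.15 ± 0.26, -2.57 ± 0.41 and -2.82 ± 0.36), as did Il21, which in vivo went from 7.14 and 6.75 to 9.49 and 9.70 (-3.41 ± 0.28). Il2ra (2.22 ± 0.41), Irf8 (2.25 ± 0.34), Eomes (1.95 ± 0.37) and Slc7a5 (2.05 ± 0.30) were more positive in culture. Gimap7 and the other genes given here with a difference were called in each of the 8 fits without 1 array. Gimap5 was not. Il7r fell in vivo as well, from 11.05 and 11.70 to 7.28 and 7.38, and the difference was not called (0.62 ± 0.46, adjusted p = 0.377).

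**Figure D5:**
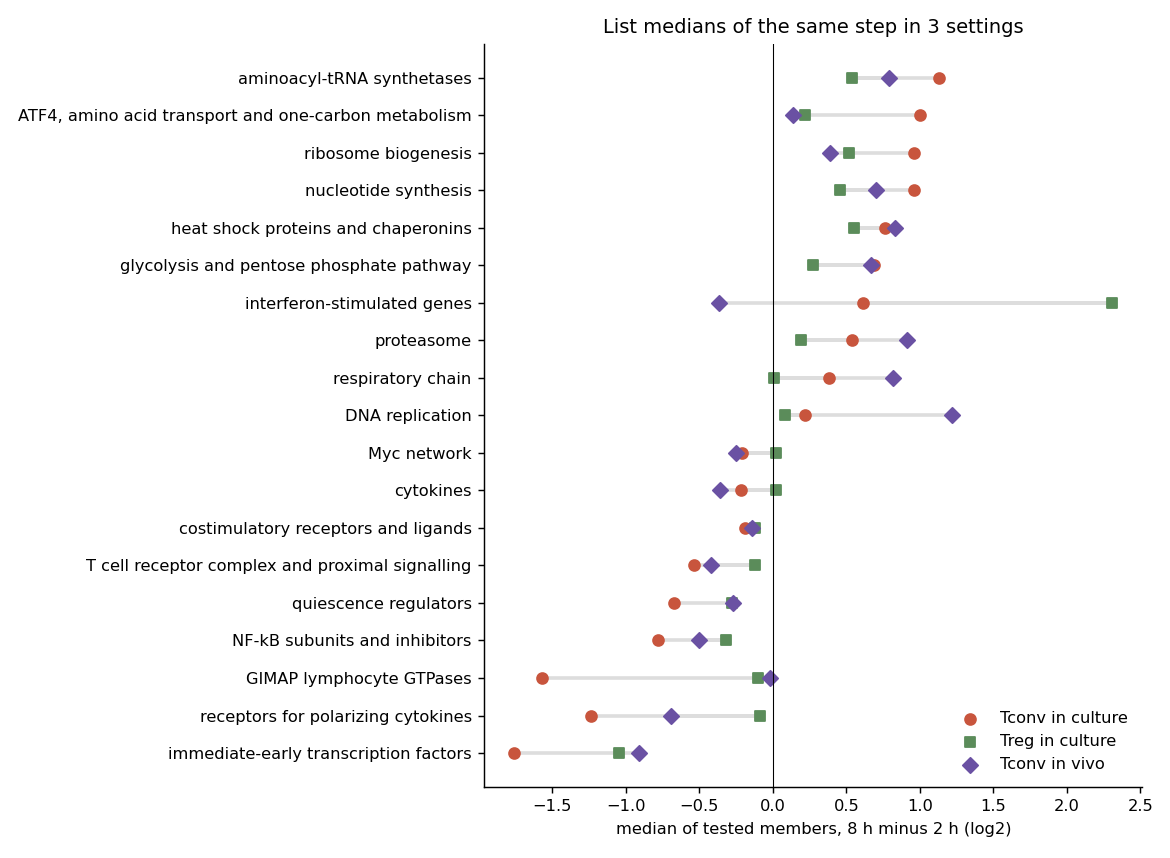
Median difference from 2 to 8 h (log2) of the tested members of 19 gene lists in Tconv in culture (circles), Treg in culture (squares) and Tconv in vivo (diamonds). Interferon-stimulated genes range from -0.37 in vivo to 2.31 in Treg, DNA replication genes from 0.08 in Treg to 1.22 in vivo, and GIMAP genes stand at -1.57 in Tconv in culture against -0.10 and -0.02.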

How the data were processed

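RNA was hybridised to Affymetrix ST1.0 gene arrays. The deposited values are RMA intensities on a linear scale, which the authors made with Affymetrix Power Tools and RMA, per the submitters' processing notes; no version is given in the sources used here. Intensities were turned into log2 values with no offset. Of each symbol the brightest cluster was kept, and a gene was tested if 2 or more of 42 arrays had it above their median (12425 genes).

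The step was fitted in limma 3.58.1 (R 4.3.3) on 19 culture arrays, without the 0 h Tconv array numbered 1, with 10 group means, the array number as a block and Benjamini-Hochberg adjustment. The comparison with the in vivo step used 41 arrays. The block rests on the labels, which give each number 1 sex and age. Deviations from the group means correlated at -0.07 between the 2 h and 8 h groups, and between -0.39 and 0.71 (median 0.24) over 36 pairs of 9 culture groups. The number of arrays limits the precision.

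Genes named were the 12 largest called rises and 12 largest called falls whose times did not overlap, up to 4 called members per list with the largest change, the 5 largest called differences per setting and direction, and Il2, Il2ra, Irf4, Myc, Egr1, Egr2, Nr4a1, Tbx21, Batf, Il7r and Foxp3, besides cell markers. Predicted genes, microRNAs, small nucleolar RNAs and receptor gene segments were left out. Members and lists were chosen with earlier results of these data known. The fit was tested on simulated data with independent noise and an effect of the number. No 8 h array was narrowed there, so that test cannot show what the narrow 8 h array does to the calls.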

Additional observations from a re-analysis of the deposited data

Results flagged for a closer look

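Several genes differed between the step in Tconv and the same step in Treg of the cultures by the test of the difference (limma, Tconv change minus Treg change, log2). The difference was 2.76 for Tnfrsf9, -3.20 for Socs2 and -2.99 for Il7r, described above. Il10, an inhibitory cytokine, lay between 5.37 and 5.80 in Tconv and went from 8.54 and 8.17 to 6.01 and 5.73 in Treg (2.28 ± 0.37, called in 5 of 8 fits without 1 array). Itm2a went from 11.70 and 11.96 to 12.48 and 12.45 in Tconv and from 10.75 and 10.71 to 9.73 and 9.42 in Treg (1.80 ± 0.29, 6 of 8). The lactate exporter Slc16a3 (1.92 ± 0.37, 2 of 8) and Rgs16, a regulator of G protein signals (1.72 ± 0.28, 7 of 8), were also more positive in Tconv. Il12rb2 went down in Tconv and from 6.47 and 6.49 to 9.14 and 7.72 in Treg (-3.90 ± 0.66, 5 of 8). The interferon-induced GTPase Iigp1 (-2.92 ± 0.60, 1 of 8) and the RNA sensor Ddx58 (-2.75 ± 0.40, 7 of 8) were more negative in Tconv.

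Other genes differed between culture and in vivo (culture change minus in vivo change, log2). The difference was -3.25 for Gimap7 and -3.41 for Il21, described above. Ifit3 lay between 4.90 and 5.41 in vivo (2.54 ± 0.64, called in 5 of 8 fits), and Trim13 between 5.99 and 6.48 (-3.15 ± 0.49, 8 of 8). Il12rb2 went from 7.05 and 6.81 to 8.01 and 8.49 in vivo (-3.27 ± 0.69, 8 of 8), and the DNA helicase Hells from 6.17 and 6.42 to 8.20 and 9.20 (-2.87 ± 0.62, 6 of 8). In culture Hells was at 6.21 and 5.88 and then at 4.84 and 6.32, so that its numbers differed in direction. Slfn5 (3.14 ± 0.61, 8 of 8), Ms4a4c (2.54 ± 0.59, 7 of 8), Gbp7 (2.49 ± 0.59, 5 of 8) and Lgals3bp (2.49 ± 0.35, 8 of 8) were more positive in culture.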

How the results depend on the processing

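The step had 828 genes called higher and 1013 lower. Without the replicate block that pairs the arrays it had 690 and 815, and the difference from Treg had 8 and 72 genes (17 and 121 with it) and that from in vivo 139 and 495 (248 and 821 with it). With the 0 h Tconv array numbered 1 in the fit the counts were 337 and 359 for the step, 1 and 5 against Treg, and 87 and 207 against in vivo. Without the 3 arrays of narrowest range 574 genes were called lower in the step, and 253 were more negative than in vivo. With each array centred on its median the step had 560 rises and 804 falls. There 8 and 60 genes differed from Treg and 133 were more positive than in vivo. Quantile normalization gave 1053 rises and 1236 falls in the step, 36 genes more positive than Treg and 491 more positive than in vivo. No filter on dim genes gave 11 more positive than Treg and a correlation of the numbers of 0.46 in place of 0.56. The 4 arrays alone gave 17 and 37 calls, and all 42 arrays without the block 638 falls. Leaving out 1 array at a time gave 342 to 771 rises and 319 to 1706 falls in the step, 1 to 54 and 9 to 637 genes against Treg, and 111 to 538 and 213 to 2166 against in vivo. Of 141 named genes called in the step, 26 were called under each of the 16 alternatives and 0 were reversed by limma under any of them; 114 were not called in the 4 arrays alone, 37 with the 0 h array and 7 without the block. The causes were not tested, beyond fewer samples in the smaller fits. Levels below the array median limit the sizes given for Il2, Il21, Pole, Socs2, Il10 and Hells on all 4 arrays. They do so for Ifit3, Dpagt1, Il12rb2, Mctp2, Trim13, Kif23, Pus7, Eomes, Lss, Gimap5, Gimap7 and Iigp1 on some of them.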

Other observations

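Of 24 proteasome genes 7 were called higher and 0 lower (median 0.54), and 0 of them were called in all 4 fits without 1 array. Psmd2, a subunit of the regulatory particle, went from 9.99 and 10.31 to 11.17 and 11.11 (0.99 ± 0.20). Among 18 genes of ER folding 5 were called higher and 1 lower (median 0.31), and Pdia6, a disulfide isomerase, went from 9.23 and 9.37 to 10.38 and 10.49 (1.14 ± 0.20). Of 16 autophagy and lysosome genes 4 were called lower and 0 higher (median -0.46), but 0 without the 8 h array numbered 1. Fasl, the death ligand, went from 9.95 and 9.36 to 8.27 and 8.16 (-1.44 ± 0.21), and the pore-forming Prf1 from 8.32 and 8.39 to 7.10 and 7.49 (-1.06 ± 0.19), the called members among 7 cytotoxic genes.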
